A study of Mus musculus with 48 samples.

Results

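The 10 genes described here, *Dazl*, *Ddx4*, *Mael*, *Piwil2*, *Tdrd1*, *Asz1*, *Stk31*, *Sycp3*, *Hormad1*, and *Slc25a31*, are genes known for their work in germ cells. They were picked by name from the 24264 transcripts of the count table, with earlier results of these data known. Their RNA was followed from mouse embryonic fibroblasts (MEFs) through sorted reprogramming intermediates to induced pluripotent stem cells (iPSCs) and embryonic stem cells (ESCs), in 48 libraries from 20 conditions. The study compared reprogramming by 2 polycistronic cassettes, MKOS and OKMS, which carry Myc, Klf4, Oct4, and Sox2 in the order of the letters, and the Klf4 of OKMS lacks a short N-terminal stretch. The question asked of the germline genes was when they appear along each route, and whether their levels differ between the cassettes, between iPSCs and ESCs, and between iPSCs kept without doxycycline and in 2i.

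The cells labelled MKOS or OKMS descend from TNG ESCs, which carry a *Nanog*-GFP reporter at 1 *Nanog* allele and keep 1 intact allele. A doxycycline-inducible cassette with a CAG-driven rtTA was targeted to the *Sp3* locus of these cells, giving TNG MKOS and TNG OKMS ESCs, each of which is 1 targeted line, and transgenic MEFs came from chimeric embryos made with them. For reprogramming, these MEFs were diluted among wild-type MEFs and were cultured with doxycycline and vitamin C. Sorted populations came from day 10 by the design text, whereas the culture protocol names 10 or 15 days. 2NG- cells were CD44 low and ICAM1 low, 3NG- cells were CD44 low and ICAM1 high, both without *Nanog*-GFP, and 3NG+ cells were CD44 low, ICAM1 high, and positive for *Nanog*-GFP. These 3 gates were sorted among E-CAD+ cells for either cassette, E-CAD being the epithelial adhesion protein E-cadherin, and for OKMS the *Nanog*-GFP- gates were sorted among E-CAD- cells as well. The 8 sorted conditions had 3 libraries each. The other 12 had 2 each and were wild-type, MKOS, and OKMS MEFs, MKOS and OKMS iPSCs labelled -dox or 2i, the line D6, and TNG, TNG MKOS, TNG OKMS, and E14 ESCs. By its name D6 is taken to be the study's iPSC line with a single *piggyBac* MKOS integration, and its titles state D6 alone. E14 is taken to be the wild-type ESCs that the study lists. The study describes its iPSCs as doxycycline-independent, and the titles of the -dox and 2i samples name no line or clone. For the 2i libraries the labels state 2i alone, without saying whether doxycycline was present. The labels do not say that the replicates were separate cultures, so p-values measure the spread between these libraries, which may be technical.

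Germ cells of the mouse are set aside early in the embryo, erase most of their DNA methylation, and then switch on genes that somatic cells keep silent under methylated, CpG-rich promoters. Many of these genes serve either the piRNA pathway, in which PIWI proteins loaded with small RNAs silence transposons in granules called nuage, or meiosis, in which proteins of the chromosome axis hold homologs together for recombination. Repressor complexes with E2F6, MGA, and MAX, and DNA methyltransferases, are known to hold such genes silent outside the germline, and low levels of several germline transcripts are well known in ESCs, in particular in 2i, a pair of MEK and GSK3 inhibitors under which DNA methylation is low.

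The promoters of 5 members are shown because these 5 genes rose together when *Nanog*-GFP appeared in OKMS reprogramming, a choice made after their values had been seen. RefSeq windows on GRCm38.p6, from 250 bases before to 50 after a start of the gene, were given for 9 members. For *Ddx4*, *Stk31*, and *Tdrd1* this start lies inside the gene, downstream of its outermost RefSeq position, and for the others it is that position. Each window is written 5′ to 3′ on the strand of the gene in lower case, and capitals mark CACGTG, the E-box that MAX partners bind, which reads the same on both strands. The *Dazl* window is chr17:50293571-50293870 (minus strand), that of *Mael* chr1:166238695-166238994 (minus strand), that of *Stk31* chr6:49395289-49395588 (plus strand), that of *Sycp3* chr10:88459337-88459636 (plus strand), and that of *Hormad1* chr3:95559427-95559726 (plus strand).
Dazl: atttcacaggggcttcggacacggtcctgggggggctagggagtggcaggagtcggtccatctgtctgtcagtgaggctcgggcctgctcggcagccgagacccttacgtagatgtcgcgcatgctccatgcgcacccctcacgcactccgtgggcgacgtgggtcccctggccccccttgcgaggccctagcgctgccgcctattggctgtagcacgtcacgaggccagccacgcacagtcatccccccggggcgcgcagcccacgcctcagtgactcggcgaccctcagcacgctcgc
Mael: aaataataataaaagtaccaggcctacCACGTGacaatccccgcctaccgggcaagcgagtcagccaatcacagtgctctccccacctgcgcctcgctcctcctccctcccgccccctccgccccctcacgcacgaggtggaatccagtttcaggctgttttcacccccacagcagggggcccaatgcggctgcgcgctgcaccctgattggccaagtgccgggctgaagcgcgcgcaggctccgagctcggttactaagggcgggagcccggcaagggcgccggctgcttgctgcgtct
Stk31: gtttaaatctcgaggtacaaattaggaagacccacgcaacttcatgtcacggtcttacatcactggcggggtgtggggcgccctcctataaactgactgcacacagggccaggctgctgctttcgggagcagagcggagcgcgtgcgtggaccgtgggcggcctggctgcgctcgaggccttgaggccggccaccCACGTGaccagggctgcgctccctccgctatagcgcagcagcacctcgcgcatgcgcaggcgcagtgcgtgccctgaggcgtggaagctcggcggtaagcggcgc
Sycp3: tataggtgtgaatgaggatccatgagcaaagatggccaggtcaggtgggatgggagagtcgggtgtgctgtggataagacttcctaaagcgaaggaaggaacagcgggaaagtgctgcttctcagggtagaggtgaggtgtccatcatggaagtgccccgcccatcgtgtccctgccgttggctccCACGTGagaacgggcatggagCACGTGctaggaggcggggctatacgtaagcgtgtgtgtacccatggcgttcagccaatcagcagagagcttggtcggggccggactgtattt
Hormad1: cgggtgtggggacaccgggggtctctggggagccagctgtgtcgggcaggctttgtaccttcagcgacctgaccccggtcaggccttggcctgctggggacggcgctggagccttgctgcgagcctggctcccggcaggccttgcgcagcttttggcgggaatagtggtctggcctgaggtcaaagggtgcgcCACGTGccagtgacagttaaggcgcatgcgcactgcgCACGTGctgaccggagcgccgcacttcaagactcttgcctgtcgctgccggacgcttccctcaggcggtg
CACGTG was present in 7 of the 9 windows, all but those of *Dazl* and *Asz1*, against 7.24% of the windows of 27025 genes with 1 window each. *Sycp3* and *Hormad1* held it 2 times each, at -64 and -43 and at -57 and -20 from the gene start. The letters GCGGGAA, the core of an E2F site searched on both strands, were present in 4 windows, those of *Ddx4*, *Sycp3*, *Hormad1*, and *Slc25a31*, against 4.67% of all windows. The 9 windows held 15 to 38 CpG with a median of 24, where the median over all genes was 7 and 35.2% of genes had at least 15. These matches describe the letters of the windows, and no binding or methylation was measured here.

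Libraries had 1429717 to 14174725 reads on transcripts, with a median of 6243254, and the level that 3 reads give, taken as the floor of what a library can show, ranged from 0.212 to 2.10 CPM, the normalized read count. Repeats took 14.2% to 33.1% of all reads. CPM scales the reads of a gene to the sum over transcripts in the same library, and since the libraries were made with STRT, which reads the 5′ end of each transcript, it is not scaled by length. Between 95.4% (*Hormad1*) and 100% of a member's reads had 1 place in the genome. All 10 members passed the low-count filter and were tested among 15630 genes. The 7 fibroblast markers summed to 2977 to 5223 CPM in the 6 MEF libraries and the 6 pluripotency markers to 2.04 to 11.5 CPM, and in the 8 ESC libraries these sums were 5.57 to 10.9 and 10677 to 17709 CPM. The same sums in 3NG+ cells were 91.7 to 582 CPM for fibroblast markers and 11620 to 15956 CPM for pluripotency markers. In such bulk libraries, a lower level can come from fewer cells of a type or from less RNA per cell, and these cannot be told apart.

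Taken as a sum, the 10 genes stood at 3.47 to 15.96 CPM in the 6 MEF libraries with a median of 7.29, at 0.817 to 54.4 CPM in the 18 libraries of *Nanog*-GFP- cells with a median of 9.01, and at 84.1 to 178 CPM in the 6 libraries of 3NG+ cells with a median of 120 CPM. The 3NG+ libraries did not overlap with either of the other kinds. In -dox iPSCs the sum was 371 and 231 CPM in the MKOS libraries and 422 and 195 CPM in the OKMS libraries, and in 2i it was 466 and 270 CPM with MKOS and 199 and 141 CPM with OKMS. The 8 ESC libraries ranged from 121 to 224 CPM with a median of 168, and the D6 libraries had 157 and 179 CPM. *Sycp3* and *Hormad1* made up most of this sum in several conditions, with means of 70.5 of 109 CPM in MKOS and 113 of 139 CPM in OKMS 3NG+ cells and 245 of 301 CPM in MKOS -dox iPSCs. Up to 5 members were seen in a MEF library, and 8 to 10 in an ESC library.

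**Figure D1:**
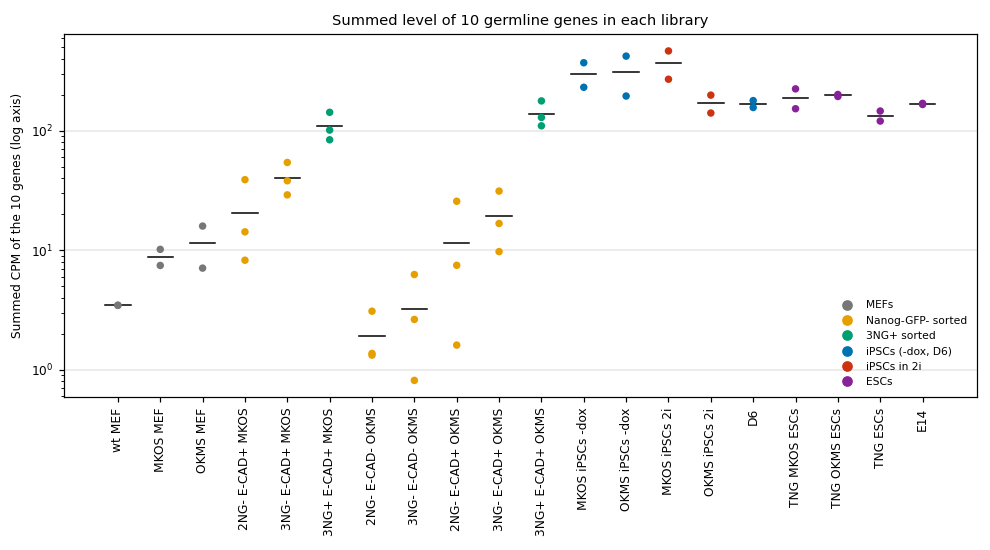
Summed CPM of the 10 germline genes (log axis) in each of the 48 libraries, grouped by condition along the horizontal axis. Points are libraries, colored by kind of cell, and short black lines are condition means. The 6 libraries of 3NG+ cells lie at 84.1 to 178 CPM, above the 18 libraries of *Nanog*-GFP- cells, which reach 54.4 CPM, and *Sycp3* and *Hormad1* supply most of the sum in 3NG+ cells.

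Of the 10 genes, 7 were higher in ESCs than in MEFs with edgeR's quasi-likelihood test at a Benjamini-Hochberg FDR of at most 0.05, and none was lower, where 26% of all genes tested were higher and 25% lower (TNG MKOS and TNG OKMS ESCs against MKOS and OKMS MEFs, 4 libraries each). The 7 were *Dazl*, *Mael*, *Piwil2*, *Stk31*, *Sycp3*, *Hormad1*, and *Slc25a31*, and all 7 were also called when any 1 of the 8 libraries was left out. *Ddx4*, *Tdrd1*, and *Asz1* were the others, and the 10 had been chosen with earlier results of these data known. The median log2 change of the members was 6.82, or 5.70 with genes that had 0 reads in MEFs set at their lower bound, and the median over all genes was 0.

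In MKOS 3NG- cells against MKOS MEFs, 4 members were higher and none lower (15% and 10.4% of all genes), and in OKMS 3NG- cells against OKMS MEFs, 3 were higher and 1 lower (14.1% and 10.5%). *Piwil2* and *Hormad1* were called higher with both cassettes, *Dazl* and *Stk31* with MKOS, and *Sycp3* with OKMS, while *Ddx4* was lower with OKMS. With *Nanog*-GFP, 5 members were higher in OKMS 3NG+ than 3NG- cells (3.06% of all genes were higher and 3.21% lower), and 1 member was higher in MKOS 3NG+ than 3NG- cells (0.557% and 1.02%). The difference between the cassettes in the step from 3NG- to 3NG+ was tested as an interaction added after the data had been seen. It called none of the 10 members (0.0128% of all genes in each direction). An unadjusted p under 0.05 was found for 4 members and for 1163 of all 15630 genes. DESeq2's Wald test called 1 of the 10 members, *Stk31*. For *Asz1* the edgeR interaction could not decide, since groups with 0 reads left a standard error of 13918.

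**Figure D2:**
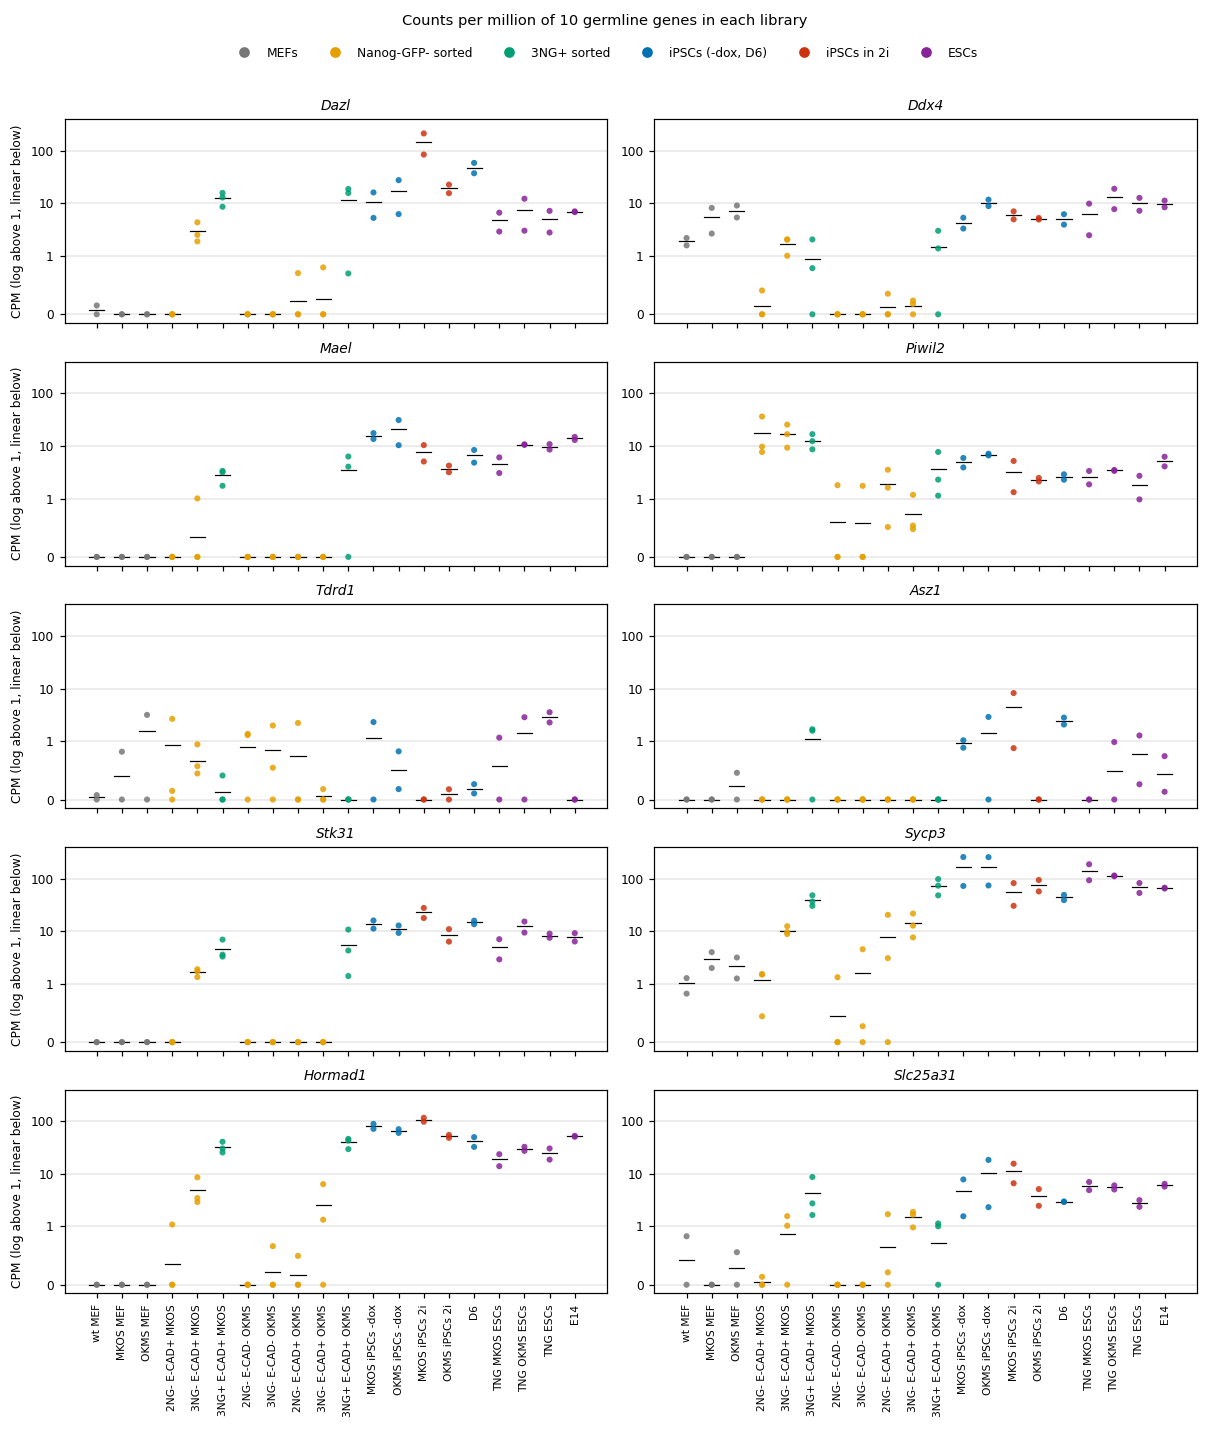
CPM of each of the 10 germline genes in every library, on an axis that is logarithmic above 1 CPM and linear below. Points are libraries of the condition named on the horizontal axis, colored by kind of cell, and short black lines are condition means. *Mael*, *Stk31*, and *Hormad1* have 0 reads in all MEF libraries, *Piwil2* has its highest condition means in the MKOS sorted cells, and *Ddx4* is present in every MEF library.

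*Dazl* encodes an RNA-binding protein that promotes translation in germ cells and is needed for their development. It had 2 reads in 1 of 6 MEF libraries and 0 in the others, and 0 reads in the 3 MKOS 2NG- libraries. In MKOS 3NG- cells it stood at 4.36, 1.89, and 2.51 CPM and in OKMS 3NG- cells at 0.803, 0, and 0 CPM. The MKOS libraries lie above every library of OKMS 3NG- cells, but the difference was not called (log2 change 2.75, SE 0.97, adjusted p = 0.15). In 3NG+ cells *Dazl* reached 8.62, 15.8, and 12.9 CPM with MKOS and 18.8, 0.699, and 15.7 CPM with OKMS, and the low OKMS value is that of the shallowest library of the series, where it rests on 1 read and 3 reads would give 2.10 CPM.

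From 3NG- to 3NG+ cells *Dazl* rose with OKMS (log2 change 5.17, SE 0.96, adjusted p = 0.00096). With MKOS the log2 change was 2.25 (SE 0.76, adjusted p = 0.12), although the 3NG+ libraries do not overlap with the 3NG- libraries. This MKOS rise was called by edgeR fitted to the compared libraries alone (adjusted p = 0.027) and without a low-count filter (0.00068). Against MEFs, *Dazl* was at least 13.9-fold higher in MKOS 3NG- cells (adjusted p = 0.0056, edgeR), taking 3 reads over the MEF libraries, which had 0, as the floor, and this call was lost without MKOS MEF replicate 1 (adjusted p = 0.091). In ESCs it was at least 58.8-fold higher than in MEFs (adjusted p = 2.4e-06). TNG MKOS ESCs had 6.65 and 2.91 CPM and TNG OKMS ESCs 3.02 and 12.2 CPM.

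*Ddx4*, also known as *Vasa*, encodes a DEAD-box RNA helicase of germ cell granules. Like *Sycp3*, and unlike the other members, *Ddx4* was seen in all 6 MEF libraries, at 1.58 and 2.19 CPM in wild-type, 2.66 and 8.20 CPM in MKOS, and 9.09 and 5.38 CPM in OKMS MEFs. In the 18 libraries of *Nanog*-GFP- cells its median was 0 and its highest value 2.06 CPM. OKMS 3NG- cells had 2, 0, and 1 reads of *Ddx4* against 96 reads in OKMS MEFs, a ratio of 0.0225 (95% exact counting interval 0.00455 to 0.0676), and the gene was called lower (adjusted p = 0.00082, edgeR).

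With MKOS, *Ddx4* stood at 1.01, 2.05, and 2.06 CPM in 3NG- cells, below both MKOS MEF libraries, and the difference was not called (log2 change -1.75, SE 0.97, adjusted p = 0.19). The difference between the cassettes in the step from MEFs to 3NG- cells, a second interaction added after the data had been seen, was not called for it either (OKMS minus MKOS -3.69 on the log2 scale, SE 1.57, adjusted p = 0.38). It called none of the 10 members (0.166% of all genes were higher and 0.282% lower), and DESeq2 called none. An unadjusted p under 0.05 was found for 1 member, *Ddx4*, and for 1611 of all 15630 genes. For *Dazl*, *Mael*, *Piwil2*, *Asz1*, *Stk31*, and *Hormad1* this interaction could not decide, since groups with 0 reads left standard errors of 3369 to 12145. 3NG+ cells had 0, 0.790, and 2.06 CPM of *Ddx4* with MKOS and 1.39, 0, and 3.00 CPM with OKMS. From OKMS 3NG- to 3NG+ cells its reads went from 3 to 32, a ratio of 12.8 (95% exact counting interval 4.01 to 65.4). The main edgeR fit did not call this rise (adjusted p = 0.057). DESeq2's Wald test called it (0.029), as did edgeR without OKMS 3NG+ replicate 2 (0.036). At the MKOS step the log2 change was -0.53 (SE 0.92, adjusted p = 0.85). *Ddx4* was at 3.32 and 5.32 CPM in MKOS and 8.87 and 11.8 CPM in OKMS -dox iPSCs, which lie above all 6 libraries of 3NG+ cells (log2 change 2.28, SE 0.70, adjusted p = 0.063), and DESeq2's Wald test called this difference. ESC libraries had 2.47 to 18.9 CPM, a range that holds the higher MEF values, and *Ddx4* did not differ beyond its error between ESCs and MEFs (log2 change 0.54, SE 0.74, adjusted p = 0.59).

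Among the piRNA pathway and nuage members, *Piwil2* is the PIWI protein MILI, which binds piRNAs in fetal and postnatal male germ cells. It had 0 reads in all 6 MEF libraries together, which allows up to 0.0637 CPM. MKOS intermediates held its 3 highest condition means in the series, with 9.69, 7.68, and 36.3 CPM in 2NG-, 16.8, 9.29, and 25.5 CPM in 3NG-, and 8.62, 16.8, and 12.3 CPM in 3NG+ cells. In OKMS E-CAD+ cells *Piwil2* was at 0.511, 1.61, and 3.53 CPM in 2NG-, 0.535, 0.476, and 1.18 CPM in 3NG-, and 1.13, 7.69, and 2.29 CPM in 3NG+ cells. No MKOS library overlapped with the OKMS libraries of the same gate.

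*Piwil2* was higher with MKOS than OKMS in 3NG- cells (log2 change 4.44, SE 1.03, adjusted p = 0.012) and in 2NG- cells (log2 change 3.05, SE 0.93, adjusted p = 0.045), and in 3NG+ cells the difference was not called (log2 change 1.83, SE 0.92, adjusted p = 0.42). It was 1 of 2 members called higher and none lower in 3NG- cells (1.38% and 0.787% of all genes), and 1 of 1 higher and 1 lower in 2NG- cells (2.84% and 2.23%). In 3NG+ cells none of the 10 was called in either direction (0.345% and 0.339%), and DESeq2 called none. There 1 member had an unadjusted p under 0.05, as had 1902 of all 15630 genes. The call in 3NG- cells was lost without OKMS 3NG- replicate 1 (adjusted p = 0.083) or 2 (0.076), with log2 changes of 4.19 and 4.25. In 2NG- cells it was lost without MKOS replicate 1 (0.054) or 3 (0.27), without OKMS replicate 1 (0.18) or 2 (0.13), and in the fit of those libraries alone (0.053), and without MKOS replicate 3 the log2 change was 2.01.

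Pluripotency and fibroblast markers moved with this difference. In 3NG- cells the 6 pluripotency markers summed to 7484 to 9437 CPM with MKOS and 1497 to 5102 CPM with OKMS, and the 7 fibroblast markers to 520 to 933 CPM and 149 to 275 CPM, none of these groups overlapping. In 2NG- cells the pluripotency sums were 2134 to 3260 CPM and 654 to 2915 CPM and the fibroblast sums 350 to 754 CPM and 68.7 to 223 CPM. The part of these markers in the levels of *Piwil2* was not tested. *Piwil2* stood at 0.985 to 6.24 CPM in the 8 ESC libraries.

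Against MEFs, *Piwil2* was at least 81.7-fold higher in MKOS 3NG- cells (adjusted p = 0.00012) and at least 3.43-fold higher in OKMS 3NG- cells (adjusted p = 0.0496, edgeR). The second call rests on 13 reads and was lost without any 1 of the 5 libraries compared (adjusted p from 0.056 to 0.27), with DESeq2's size factors (0.055), and with the replicate number as a block (0.056). In ESCs the gene was at least 28.5-fold higher than in MEFs (adjusted p = 2.7e-05). From 3NG- to 3NG+ cells it changed by -0.25 (SE 0.84) with MKOS and 2.36 (SE 1.03) with OKMS on the log2 scale, neither of which was called (adjusted p = 0.94 and 0.17).

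*Mael*, the nuage protein Maelstrom, and *Stk31*, a kinase-like protein with a Tudor domain, appeared later. *Mael* had 0 reads in all MEF libraries and in 17 of 18 libraries of *Nanog*-GFP- cells, the exception being 9 reads in 1 MKOS 3NG- library. It was at 3.15, 3.36, and 1.75 CPM in MKOS and 4.04, 0, and 6.30 CPM in OKMS 3NG+ cells. *Stk31* had 0 reads in all MEF, 2NG-, and OKMS 3NG- libraries, 1.34, 1.89, and 1.71 CPM in MKOS 3NG- cells, and 3.58, 6.91, and 3.29 CPM in MKOS and 10.7, 1.40, and 4.29 CPM in OKMS 3NG+ cells.

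*Stk31* was thus seen in the 3 MKOS but none of the 3 OKMS 3NG- libraries, and was at least 10.8-fold higher with MKOS (adjusted p = 0.0046, edgeR). This call was lost without OKMS 3NG- replicate 1 (adjusted p = 0.054) and in the fit of the 6 libraries alone (0.12). Against MEFs it was at least 7.84-fold higher in MKOS 3NG- cells (adjusted p = 0.0016). At the OKMS step to 3NG+ cells *Stk31* rose at least 35.8-fold (adjusted p = 5.0e-05) and *Mael* at least 22.6-fold (adjusted p = 0.0027), and at the MKOS step their log2 changes were 1.65 (SE 0.67, adjusted p = 0.22) and 3.01 (SE 1.01, adjusted p = 0.13). For *Mael* edgeR called the MKOS change without a low-count filter (adjusted p = 0.040) and without MKOS 3NG- replicate 1 (0.041). The interaction of *Stk31*, 6.91 on the log2 scale but fitted with a group at 0 reads, had an adjusted p of 0.12.

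-dox iPSCs had more *Mael* than 3NG+ cells, at 13.6 and 17.6 CPM with MKOS and 31.1 and 10.3 CPM with OKMS, all above the 6 libraries of 3NG+ cells (log2 change 2.45, SE 0.68, adjusted p = 0.042). It was the only member called among the 10 in this comparison (1.25% of all genes were higher and 2.05% lower), and leaving out 8 of the 10 libraries, 1 at a time, took its adjusted p to between 0.062 and 0.22. With the replicate number as a block *Mael* was not called (0.088), and *Sycp3* and *Ddx4* were (0.033 and 0.016). Markers of other cells moved with this comparison. All 5 markers of the 2-cell-like state were called higher in -dox iPSCs, with sums of 66.6 to 672 CPM against 0 to 2.14 CPM in 3NG+ cells, and 5 of 7 fibroblast markers were called lower, with sums of 5.81 to 27.2 CPM against 91.7 to 582 CPM, and their part in the level of *Mael* was not tested. *Stk31* stood at 11.2 and 15.97 CPM with MKOS and 9.28 and 12.8 CPM with OKMS in -dox iPSCs (log2 change against 3NG+ cells 1.20, SE 0.49, adjusted p = 0.20). In ESCs *Mael* was at 3.05 to 14.9 CPM and *Stk31* at 2.91 to 15.3 CPM, at least 71.8-fold and 81.9-fold above MEFs where TNG MKOS and TNG OKMS ESCs were compared (adjusted p = 4.0e-06 and 2.7e-08).

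*Tdrd1*, a Tudor-domain scaffold that binds PIWI proteins, and *Asz1*, an outer mitochondrial membrane protein of nuage also known as GASZ, were near the limit of what these libraries show. *Tdrd1* had 223 reads in 25 of the 48 libraries, never above 3.55 CPM, and it was seen in MEFs (0 to 3.16 CPM), in *Nanog*-GFP- cells (0 to 2.65 CPM), and in ESCs (0 to 3.55 CPM) alike. *Asz1* had 175 reads in 15 libraries and 0 reads in the 18 libraries of *Nanog*-GFP- cells, which allows up to 0.0255 CPM over them. Its highest value was 8.22 CPM in 1 MKOS iPSC library in 2i, whose partner had 0.880 CPM. Neither gene was called in any of the 19 comparisons.

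The meiotic chromosome axis members, *Sycp3*, a lateral element protein of the synaptonemal complex, and *Hormad1*, a HORMA-domain protein that marks unsynapsed axes, had 16235 and 7888 reads over all libraries. *Sycp3* was seen in all 6 MEF libraries at 0.830 to 3.99 CPM with a median of 1.64, and *Hormad1* had 0 reads in them, which allows up to 0.0637 CPM. In E-CAD+ 2NG- cells *Sycp3* was at 1.53, 0.443, and 1.49 CPM with MKOS and 3.07, 0, and 20.5 CPM with OKMS, and *Hormad1* at 0, 0, and 1.08 CPM and 0, 0, and 0.494 CPM. The OKMS 2NG- values of *Sycp3* are spread over more than 20 CPM, with replicate 3 apart from the others.

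3NG- cells had *Sycp3* at 8.82, 9.60, and 12.4 CPM with MKOS and 12.8, 7.62, and 21.7 CPM with OKMS, overlapping values that did not differ by the test (log2 change -0.57, SE 0.67, adjusted p = 0.77). *Hormad1* was at 2.90, 3.46, and 8.57 CPM with MKOS and 1.34, 0, and 6.36 CPM with OKMS (log2 change 0.90, SE 0.66, adjusted p = 0.57). Against MEFs, *Hormad1* was at least 23.7-fold higher in MKOS 3NG- cells (adjusted p = 0.00038) and at least 12.1-fold higher in OKMS 3NG- cells (adjusted p = 0.0031), the second of which was lost without OKMS MEF replicate 2 (0.078).

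*Sycp3* rose from OKMS MEFs to OKMS 3NG- cells by 2.77 on the log2 scale (SE 0.91, adjusted p = 0.021), and this call was lost without OKMS 3NG- replicate 3 (0.080), without OKMS MEF replicate 2 (0.26), and with DESeq2's Wald test (0.051). From MKOS MEFs to MKOS 3NG- cells the change was 1.55 (SE 0.84, adjusted p = 0.17). In 2NG- cells *Sycp3* was lower with MKOS than OKMS (log2 change -3.02, SE 0.81, adjusted p = 0.019). This difference rests on OKMS 2NG- replicate 3, without which the log2 change was -0.69 (adjusted p = 0.78), and it was also lost without MKOS 2NG- replicate 1 (0.060) or 2 (0.11) and in the fit of the 6 libraries alone (0.20).

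With *Nanog*-GFP, all 6 libraries of *Hormad1* stood within the 13.96 to 52.7 CPM of the 8 ESC libraries, and for *Sycp3* the 3 MKOS libraries and 1 of 3 OKMS libraries stood below the 53.4 CPM of the lowest ESC library. *Sycp3* was at 30.3, 48.2, and 36.7 CPM in MKOS and 97.9, 73.4, and 48.1 CPM in OKMS 3NG+ cells, and *Hormad1* at 25.4, 40.7, and 30.3 CPM and 42.9, 46.2, and 29.5 CPM, in each case above every 3NG- library. *Hormad1* rose with both cassettes, by 2.88 (SE 0.60, adjusted p = 0.0082) with MKOS and 4.21 (SE 0.67, adjusted p = 0.00011) with OKMS on the log2 scale. The MKOS call was lost without MKOS 3NG- replicate 1 (0.081) or 2 (0.065) or 3NG+ replicate 2 (0.054).

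*Sycp3* rose with OKMS (log2 change 2.59, SE 0.68, adjusted p = 0.016), a call lost without OKMS 3NG- replicate 1 (0.085) or 2 (0.11) or 3NG+ replicate 1 (0.084), and with MKOS its log2 change was 2.08 (SE 0.67, adjusted p = 0.096). The MKOS rise was called by edgeR fitted to the compared libraries alone (adjusted p = 0.0030) and without a low-count filter (1.1e-08). The interaction terms were 1.33 (SE 0.86, adjusted p = 0.80) for *Hormad1* and 0.50 (SE 0.92, adjusted p = 1.00) for *Sycp3*. The sums of the 6 pluripotency markers moved in the same way, from 7484 to 9437 CPM in MKOS 3NG- to 11620 to 13127 CPM in 3NG+ cells, and from 1497 to 5102 CPM to 14159 to 15956 CPM with OKMS, and their part in the levels of the germline genes was not tested.

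**Figure D3:**
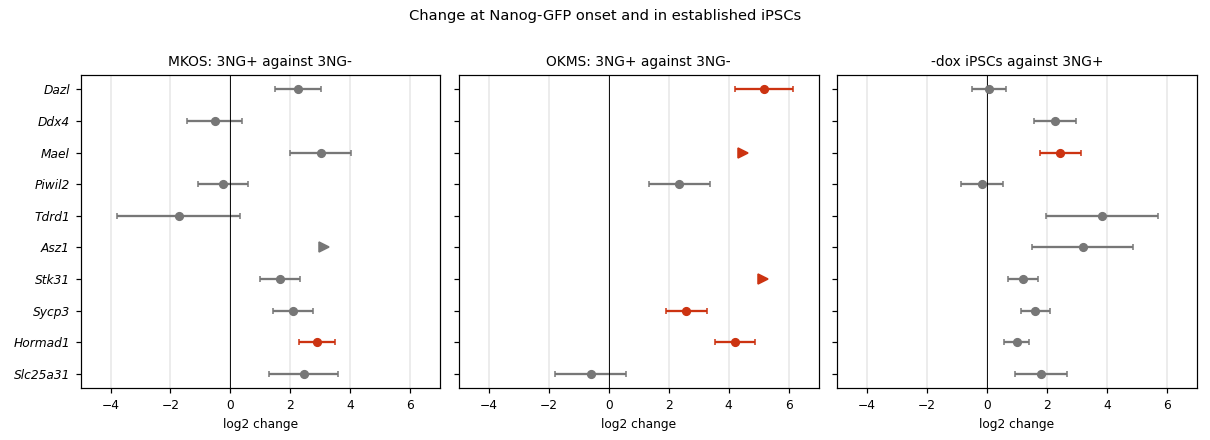
Log2 change of each germline gene from 3NG- to 3NG+ cells with MKOS (left) and OKMS (middle) and from 3NG+ cells to -dox iPSCs of both cassettes (right). Points are edgeR estimates with bars of 1 standard error, arrowheads are lower bounds for genes with 0 reads in 3NG- cells, red marks an FDR of at most 0.05, and genes with 3 reads or fewer in a group that give no bound (*Ddx4*, *Tdrd1*, and *Asz1* with OKMS) are not drawn. With OKMS *Dazl*, *Mael*, *Stk31*, *Sycp3*, and *Hormad1* are red, with MKOS *Hormad1* alone.

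*Sycp3* in -dox iPSCs was split by replicate number, at 258 and 72.6 CPM with MKOS and 256 and 74.1 CPM with OKMS. These overlap with the OKMS 3NG+ values, and the change from 3NG+ cells was not called (log2 change 1.61, SE 0.49, adjusted p = 0.057), although it was with the replicate number as a block (1.65, adjusted p = 0.033). *Hormad1* was at 71.7 and 88.9 CPM with MKOS and 60.0 and 70.5 CPM with OKMS, above the 6 libraries of 3NG+ cells (log2 change 0.99, SE 0.43, adjusted p = 0.22). Against -dox iPSCs, ESCs had less *Hormad1*, 23.6 and 13.96 CPM in TNG MKOS and 27.3 and 32.6 CPM in TNG OKMS ESCs, with no overlap and a log2 change of -1.72 (SE 0.48, adjusted p = 0.062). DESeq2's Wald test called this difference (adjusted p = 0.032), as did the replicate block (0.027), and without TNG MKOS ESC replicate 1 edgeR called it too (-2.05, adjusted p = 0.046). Of the 5 markers of the 2-cell-like state 3 were called lower in these ESCs, with sums of 1.27 and 1.31 CPM in TNG MKOS and 200.2 and 208 CPM in TNG OKMS ESCs against 66.6 to 672 CPM in -dox iPSCs, and their part in the level of *Hormad1* was not tested.

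None of the 10 members was called between these ESCs and -dox iPSCs with edgeR (0.269% of all genes were higher in ESCs and 1.13% lower), and DESeq2 called *Hormad1* alone. An unadjusted p under 0.05 was found for 2 members and for 2183 of all 15630 genes. In MEFs and ESCs compared, *Sycp3* was 5.53 higher in ESCs on the log2 scale (SE 0.69, adjusted p = 1.1e-08) and *Hormad1* at least 231-fold higher (adjusted p = 3.3e-10). *Sycp3* in TNG and E14 ESCs was at 53.4, 82.4, 67.3, and 64.8 CPM, below the 93.1, 188, 115, and 111 CPM of the ESCs with a cassette. *Hormad1* was at 52.7 and 50.7 CPM in E14 ESCs and 18.6 and 30.3 CPM in TNG ESCs (log2 change 0.98, SE 0.67, adjusted p = 0.90). Of the 10 members none was called between E14 and TNG ESCs (0.032% of all genes higher and 0.0128% lower), and DESeq2 called none. An unadjusted p under 0.05 was found for 1 member and for 945 of all 15630 genes.

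*Slc25a31* encodes AAC4, the ADP/ATP carrier of mitochondria in male germ cells. It had reads in 2 of 6 MEF libraries, at 0.830 and 0.557 CPM, and in 3NG- cells it was at 1.56, 0, and 1.03 CPM with MKOS and 0.982, 1.67, and 1.88 CPM with OKMS. 3NG+ cells had 2.73, 8.69, and 1.64 CPM with MKOS and 1.13, 0, and 1.00 CPM with OKMS, which do not overlap with each other, but the cassettes were not called different (log2 change 2.19, SE 1.18, adjusted p = 0.45). Neither step to 3NG+ cells was called, with log2 changes of 2.45 (SE 1.15, adjusted p = 0.29) for MKOS and -0.59 (SE 1.18, adjusted p = 0.84) for OKMS. The gene was higher in ESCs than in MEFs, with 183 against 3 reads, a ratio of 53.8 (95% exact counting interval 18.1 to 263) and an adjusted p of 0.00021.

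E-CAD+ and E-CAD- cells of OKMS reprogramming were compared over the 2NG- and 3NG- gates, with 6 libraries each. 2 members were higher in E-CAD+ cells and none was lower, where 4.69% of all genes were higher and 2.39% lower. *Sycp3* was at 1.33, 0, and 0 CPM in E-CAD- 2NG- and 0, 4.53, and 0.272 CPM in E-CAD- 3NG- cells, and it was higher in E-CAD+ cells by 3.96 on the log2 scale (SE 0.68, adjusted p = 9.7e-05). E-CAD+ 2NG- cells had 3.07, 0, and 20.5 CPM, which overlap with the E-CAD- values. E-CAD+ 3NG- cells had 12.8, 7.62, and 21.7 CPM, which do not. *Slc25a31* had 0 reads in the 6 E-CAD- libraries and 39 in the E-CAD+ libraries, so that it was at least 9.64-fold higher (adjusted p = 0.0079), and the call was lost without OKMS E-CAD+ 2NG- replicate 1 (0.0504).

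*Hormad1* had 4 reads in the E-CAD- and 49 in the E-CAD+ libraries (log2 change 3.57, SE 1.26, adjusted p = 0.079), and DESeq2's Wald test called it, as did edgeR without E-CAD- 3NG- replicate 1 (0.043) or E-CAD+ 3NG- replicate 2 (0.034). *Dazl* had 0 against 19 reads and *Ddx4* 0 against 8, neither of them called, and *Mael*, *Asz1*, and *Stk31* had no read on either side. The sums of pluripotency markers were 141 to 214 CPM in the E-CAD- and 654 to 5102 CPM in the E-CAD+ libraries, and those of fibroblast markers, of which 6 of 7 were called lower in E-CAD+ cells, were 523 to 844 CPM and 68.7 to 275 CPM. Neither pair of ranges overlaps, and the part of these markers in the differences was not tested.

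For the comparison of iPSCs in 2i with -dox iPSCs, the ERK targets *Spry4* and *Dusp6* were checked first. *Spry4* fell from 831 to 3 reads, a ratio of 0.00452 (95% exact counting interval 0.000931 to 0.0133), and *Dusp6* from 48.2 to 4.09 CPM (adjusted p = 4.7e-11 and 8.6e-10), and *Klf4* rose from 32.8 to 92.0 CPM (adjusted p = 0.0038). Over both cassettes, none of the 10 members was called (1.89% of all genes were higher in 2i and 2.45% lower). An unadjusted p under 0.05 was found for 3 members, *Dazl*, *Mael*, and *Sycp3*, and for 2718 of all 15630 genes. DESeq2's Wald test called none of the 10, and edgeR fitted to these 8 libraries alone called *Dazl* (adjusted p = 0.040) and *Mael* (0.033). The members had a median log2 change of -0.78, with 2 above 0 and 8 below, against 0 over all genes. By cassette, 6 were above 0 and 4 below for MKOS (median 0.39), and 1 was above 0 and 9 below for OKMS (median -1.46). The median over all genes was 0 with either cassette, and the numbers of all genes above and below 0 were not counted. Some of these directions rest on few reads. In 2i against -dox, *Tdrd1* had 0 against 13 reads with MKOS and 1 against 5 with OKMS, and *Asz1* had 0 against 14 with OKMS. The difference between the cassettes was called for none of the 10 members. Over both cassettes, *Asz1* is among the 8 below 0 through a fitted value for OKMS in 2i, where it had 0 reads, while its mean was 2.27 CPM in 2i and 1.20 CPM without doxycycline.

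*Dazl* was 1 of 2 members with an estimate above 0, and its values differed between the cassettes. MKOS iPSCs had 5.29 and 16.1 CPM without doxycycline and 214 and 84.9 CPM in 2i, while OKMS iPSCs had 27.6 and 6.23 CPM without doxycycline and 22.7 and 15.6 CPM in 2i. The MKOS groups do not overlap and the OKMS groups do. *Dazl* was higher in 2i with MKOS by 3.73 on the log2 scale (SE 0.94, adjusted p = 0.028), the only member called there (0.889% of all genes were higher and 1.08% lower), and not with OKMS (0.01, SE 0.86, adjusted p = 1.00). With OKMS none of the 10 was called (0.141% and 0.365% of all genes), and DESeq2 called none. There 2 members had an unadjusted p under 0.05, as had 1699 of all 15630 genes.

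The MKOS call was lost without -dox replicate 1 (log2 change 3.11, adjusted p = 0.25) or 2 (4.75, 0.094) or 2i replicate 1 (2.98, 0.19). The difference between the cassettes was itself -3.71 for *Dazl* on the log2 scale (OKMS minus MKOS, SE 1.25, unadjusted p = 0.0054, adjusted p = 0.42), so it was not called. Nor was any other member (0% of all genes higher and 0.0064% lower), and DESeq2 called none. An unadjusted p under 0.05 was found for 2 members and for 1156 of all 15630 genes. Over both cassettes the log2 change of *Dazl* was 1.87 (SE 0.62, adjusted p = 0.085), and without OKMS -dox replicate 1 it was 2.62 (0.049). The highest levels of the gene outside 2i were those of the line D6, at 37.4 and 58.8 CPM.

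*Mael* was at 10.4 and 5.06 CPM in 2i against 13.6 and 17.6 CPM with MKOS, and at 4.23 and 3.16 CPM against 31.1 and 10.3 CPM with OKMS, with no overlap in either cassette and a log2 change over both of -1.87 (SE 0.76, adjusted p = 0.18). *Sycp3* was at 82.2 and 30.4 CPM in 2i against 258 and 72.6 CPM with MKOS and at 94.1 and 57.1 CPM against 256 and 74.1 CPM with OKMS, with overlapping ranges (log2 change -1.46, SE 0.55, adjusted p = 0.13). *Hormad1* was at 97.9 and 116 CPM in 2i with MKOS, its highest values in the series, and at 54.8 and 48.3 CPM with OKMS, and its change over both was -0.06 (SE 0.47, adjusted p = 1.00).

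*Ddx4* in 2i was at 4.97 and 7.04 CPM with MKOS and 4.93 and 5.27 CPM with OKMS (log2 change -0.36, SE 0.75, adjusted p = 0.94). *Stk31* was at 27.7 and 17.8 CPM and at 10.9 and 6.32 CPM (log2 change 0.09, SE 0.54, adjusted p = 1.00), and *Piwil2* at 5.19 and 1.32 CPM and at 2.11 and 2.46 CPM (log2 change -1.20, SE 0.77, adjusted p = 0.46). For *Slc25a31* the values were 15.6 and 6.60 CPM and 5.11 and 2.46 CPM (log2 change -0.23, SE 0.93, adjusted p = 1.00). *Tdrd1* had 1 read in the 4 libraries in 2i against 18 without doxycycline, a ratio of 0.0696 (95% exact counting interval 0.00167 to 0.441), and was not called (adjusted p = 0.32).

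Of markers that moved with 2i, 5 genes of the 2-cell-like state summed to 66.6 to 672 CPM in the 4 -dox and 5.62 to 126 CPM in the 4 libraries in 2i. Over both cassettes 3 of these 5 genes were called lower, with OKMS 3, and with MKOS none (2.45%, 0.365%, and 1.08% of all genes). The difference between the cassettes was called for none of them. There 4 of them had an unadjusted p under 0.05, as had 1156 of all 15630 genes. Of the 6 pluripotency markers 2 were called lower over both cassettes and none higher. The part of these markers in the levels of the germline genes was not tested. The 7 fibroblast markers were low in -dox and 2i libraries, at 5.81 to 27.2 CPM and 9.94 to 21.3 CPM. The iPSC line D6 had 49.0 and 39.1 CPM of *Sycp3*, 32.5 and 49.8 CPM of *Hormad1*, and 15.8 and 13.6 CPM of *Stk31*, and none of the 10 members was called between D6 and -dox iPSCs (0.659% of all genes were higher and 0.595% lower). Of the members, *Dazl* (log2 change 1.89, SE 0.71, adjusted p = 0.22) and *Sycp3* (-1.85, SE 0.72, adjusted p = 0.25) had an unadjusted p under 0.05, as had 1926 of all 15630 genes. DESeq2 called none of the members.

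**Figure D4:**
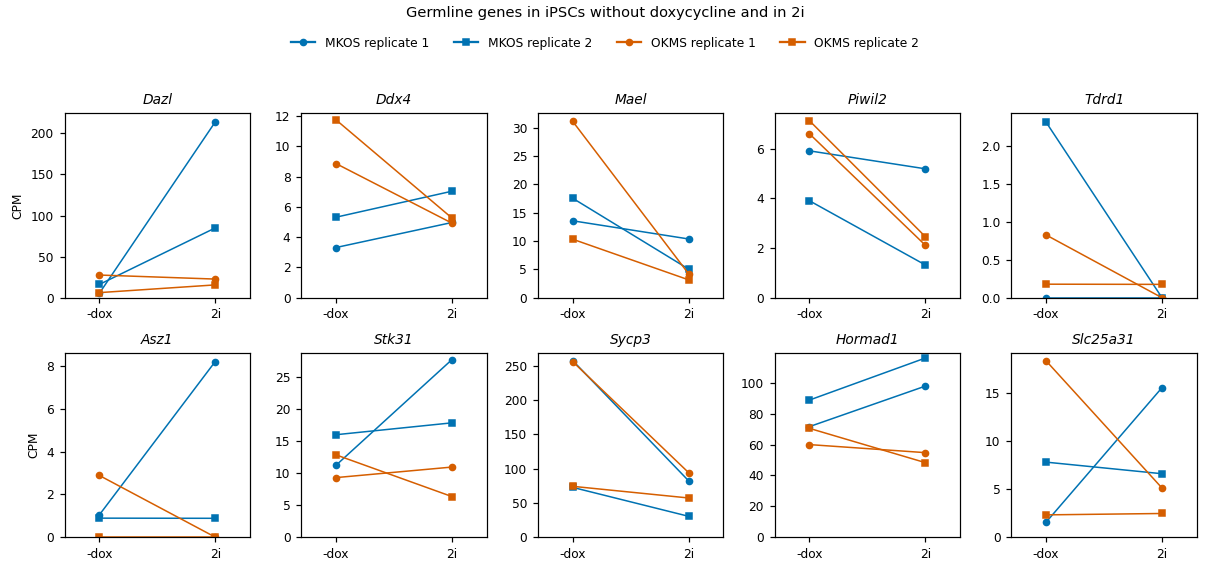
CPM of each germline gene in iPSCs labelled -dox and 2i, with 2 libraries per cassette and condition, each panel on its own linear axis from 0. Blue is MKOS, orange is OKMS, circles are replicate 1 and squares replicate 2, and lines join libraries of the same cassette and number, which the labels do not state to be paired. *Dazl* goes from 5.29 and 16.1 CPM to 214 and 84.9 CPM with MKOS, whereas the OKMS libraries stay between 6.23 and 27.6 CPM.

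Other genes of the same processes were described from lists, which were also chosen with earlier results of these data known. Their counts stand beside the shares of all genes called in the same comparisons. These shares were 26% higher and 25% lower in ESCs against MEFs, 15% and 10.4% in MKOS 3NG- cells and 14.1% and 10.5% in OKMS 3NG- cells against MEFs, 0.557% and 1.02% at the MKOS and 3.06% and 3.21% at the OKMS step to 3NG+ cells, and 1.89% and 2.45% in 2i. Of 11 other piRNA and nuage genes tested, 7 were higher and 1 lower in ESCs than in MEFs, 4 and 3 were higher in MKOS and OKMS 3NG- cells than in MEFs, 2 and 4 were higher in 3NG+ than in 3NG- cells of MKOS and OKMS, and 1 was lower in 2i. *Tdrd12*, a partner of PIWI proteins, was at least 517-fold higher in ESCs than in MEFs and rose from 13.7 to 79.1 CPM from OKMS 3NG- to 3NG+ cells (log2 change 2.78, SE 0.67, adjusted p = 0.0089). *Rnf17*, a Tudor-domain protein of spermatids, rose with both cassettes, from 2.87 to 19.8 CPM with MKOS and 2.11 to 17.8 CPM with OKMS (adjusted p = 0.011 and 0.0019). In 2i *Tdrkh*, which tethers PIWI proteins to mitochondria, fell from 62 reads to 1, a ratio of 0.0202 (95% exact counting interval 0.000504 to 0.117, adjusted p = 0.021).

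Of 22 other meiosis genes tested, 16 were higher and 1 lower in ESCs than in MEFs (26% and 25% of all genes), 5 were higher in MKOS 3NG- cells and 8 higher and 1 lower in OKMS 3NG- cells than in MEFs, 1 and 6 were higher in 3NG+ than 3NG- cells of MKOS and OKMS, and 1 was higher and 1 lower in 2i. *Stra8*, the retinoic acid target that opens meiosis, had 0 reads in OKMS 3NG- and averaged 8.85 CPM in OKMS 3NG+ cells, at least 58.0-fold more (adjusted p = 0.0100). *Smc1b*, a meiotic cohesin subunit, rose from 0.457 to 6.56 CPM with MKOS and from 2.14 to 13.5 CPM with OKMS (adjusted p = 0.030 and 0.046), and it was lower in ESCs than in -dox iPSCs (4.23 against 34.9 CPM, adjusted p = 0.010), as was *Hormad2*, the paralog of *Hormad1* (2.54 against 16.4 CPM, adjusted p = 0.011). In 2i the cohesin *Rec8* rose from 2.25 to 20.01 CPM (adjusted p = 0.033) and *Syce3*, a central element protein, fell from 35.4 to 5.98 CPM (adjusted p = 0.0096).

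Of 9 germ cell specification and early germ cell genes tested, 9 were higher in ESCs than in MEFs (26% of all genes), 5 and 7 in MKOS and OKMS 3NG- cells (15% and 14.1%), and 1 in 2i (1.89%). *Dppa3*, which protects methylation in the early embryo and marks primordial germ cells, was at least 787-fold higher in MKOS 3NG- cells than in MEFs, and in 3NG+ cells it was lower with MKOS than OKMS (73.4 against 903 CPM, adjusted p = 0.0071). *Sohlh2*, a bHLH factor of germ cell differentiation, rose at the step to 3NG+ cells with both cassettes, to 5.10 CPM with MKOS and 13.98 CPM with OKMS (adjusted p = 0.028 and 0.00096). *Kit*, the receptor of germ cell survival, rose in 2i from 11.3 to 59.7 CPM (adjusted p = 0.00055) and was also higher in D6 than in -dox iPSCs (58.4 CPM, adjusted p = 0.0028).

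Of 16 repressors of germline genes tested, 13 were higher in ESCs than in MEFs (26% of all genes), 10 and 9 were higher in 3NG- cells of MKOS and OKMS (15% and 14.1%) with 1 lower in OKMS, and 3 and 7 rose from 3NG- to 3NG+ cells (0.557% and 3.06%). *Dnmt3l*, the cofactor of de novo methylation, rose from 10.3 to 118 CPM at the OKMS step to 3NG+ cells (log2 change 3.72, SE 0.58, adjusted p = 5.2e-05) and was higher with MKOS than OKMS in 3NG- cells (66.6 against 10.3 CPM, adjusted p = 0.0060). In 2i the 3 genes called lower were the methyltransferases *Dnmt3a*, from 118 to 16.6 CPM (adjusted p = 1.4e-06), and *Dnmt3b*, from 143 to 40.6 CPM (adjusted p = 0.022), with *Dnmt3l*, from 222 to 53.0 CPM (adjusted p = 0.00094). Of the 3 TET dioxygenases, which oxidize methylcytosine, *Tet1* rose from 33.6 to 91.1 CPM at the OKMS step to 3NG+ cells (adjusted p = 0.015).

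The order of the conditions differed between the members. *Dazl* was highest in MKOS iPSCs in 2i with a mean of 149 CPM, followed by D6 with 48.1 CPM, whose libraries do not overlap with it, and then by OKMS iPSCs in 2i with 19.18 CPM and OKMS -dox iPSCs with 16.9 CPM, which overlap with each other and with 3NG+ cells. *Hormad1* had MKOS iPSCs in 2i (107 CPM), MKOS -dox iPSCs (80.3 CPM), and OKMS -dox iPSCs (65.3 CPM) at its top, and none of these 3 overlaps with the next, with 2 libraries each. MKOS iPSCs in 2i and -dox were not called different for it (log2 change 0.36, SE 0.66, adjusted p = 0.91, edgeR). *Ddx4* was highest in TNG OKMS ESCs (13.4 CPM) and OKMS -dox iPSCs (10.3 CPM), which overlap, and OKMS MEFs (7.24 CPM) stood above TNG MKOS ESCs (6.17 CPM), which overlap with them. The 3 highest means of *Piwil2* were those of the MKOS 2NG- (17.9 CPM), 3NG- (17.2 CPM), and 3NG+ cells (12.6 CPM), all overlapping with each other.

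Across the 20 condition means of log2(CPM + 1), given as a description over points that share libraries and depth, *Stk31* followed the mean of the other members most closely, with Pearson's r of 0.97, and was followed by *Mael* (0.94), *Hormad1* (0.93), *Slc25a31* (0.89), *Sycp3* (0.88), and *Dazl* (0.85). *Asz1* (0.67) and *Ddx4* (0.65) followed it less, *Piwil2* least of the genes with a positive r (0.38), and *Tdrd1* had an r of -0.12. The 5 genes outside the members whose condition means were most like the members' mean were *Dmrtc1c1_loc1* (r = 0.97), *Sycp1*, a transverse filament protein of the synaptonemal complex (0.96), *Mageb16-ps1* (0.96), *Naa11*, a testis paralog of an N-terminal acetyltransferase (0.95), and *Psma8*, the testis proteasome subunit (0.95). *Sycp1* averaged 0 CPM in MEFs, 6.66 CPM in -dox iPSCs, and 4.20 CPM in 2i, and *Psma8* 0.0495, 43.9, and 37.4 CPM.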

How the data were processed

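RNA of 48 mouse samples was measured by STRT, which tags the 5′ ends of transcripts. The deposited table holds raw read counts per transcript, repeat type, and spike-in, made by the authors from reads aligned with Bowtie (0.12.7), and no molecular identifiers are named. The submitters' processing notes name mm10, the study's methods mm9, and 98.6% of 20698 shared symbols lay within 101 bases of their GRCm38.p6 gene, so that build was used for promoters. CPM divides by all reads on transcripts, and intervals and floors of 3 reads cover counting error only. Groups came from the sample labels.

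Counts of 15630 transcripts kept by filterByExpr were fitted with edgeR (4.0.16, R 4.3.3), with TMM factors, 20 condition coefficients over all 48 libraries, and the quasi-likelihood test, for 17 comparisons and 2 interactions added after the data had been seen. P-values were two-sided and adjusted over all genes (Benjamini-Hochberg), and an FDR of at most 0.05 was a call. The prior count of 0.125 sets fitted changes of genes with 0 reads in a group, so for these a lower bound against 3 reads over that group is given, and for 1 to 3 reads a ratio with its interval. Comparisons that use the same libraries are not independent. Scripts were tested on counts simulated for the E-CAD+ 3NG- and the -dox and 2i iPSC conditions, with 200 genes changed 4-fold (dispersion 0.2). EdgeR called 50.5% of these genes in MKOS against OKMS 3NG- cells and 75% in 2i against -dox iPSCs, and DESeq2 67.5% and 82%. Unchanged genes were 4 of 105 and 9 of 159 calls with edgeR and 21 of 156 and 27 of 191 with DESeq2. A 4-fold change can thus be missed by the test.

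The 10 members and all gene lists were chosen with earlier results of these data known. Named were all members, up to 4 called genes per list and comparison by size of change, and the 5 genes most like the members' mean. Promoters were to be those of members called in 2i over both cassettes, of which there were none. Alternatives were DESeq2 (1.42.0) size factors and Wald test, no low-count filter, a fit of the compared libraries alone, a replicate block, and each library left out, for which the dispersion trend of the full fit was kept.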

Additional observations from a re-analysis of the deposited data

How the results depend on the processing

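None of the 29 calls of members changed direction under the alternatives that gave it a value, 6 of them had no value in the fit of the compared libraries alone, and the direction of members that were not called was not recomputed. DESeq2's size factors left the number of members called within 1.5 times in all 19 comparisons. Without a low-count filter the members called were 2 for 2i over both cassettes, 2 for 2i with MKOS, 1 for 2i with OKMS, 1 for the difference between these, 4 for MKOS 3NG+ against 3NG-, 1 for MKOS against OKMS 3NG+, 4 for -dox iPSCs against 3NG+, 1 for ESCs against -dox iPSCs, 4 for E-CAD+ against E-CAD-, 2 for D6 against -dox iPSCs, and 2 for the difference between the cassettes at the step to 3NG+. In fits of the compared libraries alone they were 2 for 2i over both cassettes, 2 for OKMS 3NG- against MEFs, 3 for MKOS 3NG+, 2 for OKMS 3NG+ (where *Dazl*, *Mael*, and *Stk31* gave no value), 0 for the cassettes in 2NG- and 1 in 3NG- cells, 3 for -dox iPSCs against 3NG+, 1 for ESCs against -dox iPSCs, and 1 for E-CAD. DESeq2's Wald test called 2 for -dox iPSCs against 3NG+, 1 for ESCs against -dox iPSCs, and 1 for the difference at the step to 3NG+. The causes were not tested.

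With 1 library left out, the members called ranged from 0 to 1 for 2i over both cassettes, for 2i with MKOS, for MKOS 3NG+ against 3NG-, for the cassettes in 2NG- cells, for ESCs against -dox iPSCs, and for the difference at the step to 3NG+. They ranged from 0 to 2 for the cassettes in 3NG- cells and for -dox iPSCs against 3NG+, from 1 to 3 for OKMS 3NG- against MEFs and for E-CAD, from 3 to 5 for MKOS 3NG- against MEFs, from 4 to 6 for OKMS 3NG+ against 3NG-, and were 7 throughout for ESCs against MEFs. Of 194 calls of named members recomputed in this way, 157 were kept and 37 lost. With reads on repeats added to the divisor, 34 of 200 condition means in CPM moved by more than the spread between replicates. Libraries of under 3 reads for a gene limit *Tdrd1* and *Asz1* most.

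Samples with the same replicate number deviated together in part, with 36 of 84 pairs among sorted samples (mean r = 0.104) and 6 of 12 among iPSCs (mean r = 0.111) above 0.1. Among all unsorted samples, iPSCs included, 16 of 132 pairs were above 0.1 (mean r = -0.00475). The labels do not state pairing, and the replicate number was left out of the main fit. With the number as a replicate block, 2 members were called for -dox iPSCs against 3NG+ (*Sycp3* and *Ddx4*, with *Mael* lost at an adjusted p of 0.088, edgeR) and 1 for ESCs against -dox iPSCs, and the other 17 counts stayed within 1.5 times. In same-numbered comparisons added after the data had been seen, *Dazl* and *Stk31* were higher in 2i in 3 of 4, and *Mael*, *Piwil2*, and *Sycp3* in 0 of 4. *Tdrd1* was higher in none, but it had 0 reads on both sides for MKOS replicate 1 and 1 read on both for OKMS replicate 2. The same count over all genes was not made.

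The number of all genes called moved by over 1.5 times in these cases. Without the low-count filter it went from 679 to 1025 for 2i over both cassettes, from 308 to 702 with MKOS and from 79 to 385 with OKMS, from 247 to 887 for MKOS 3NG+, from 793, 339, and 107 to 1260, 864, and 484 for the cassettes in 2NG-, 3NG-, and 3NG+ cells, from 515 to 987 for -dox iPSCs against 3NG+, from 219 to 564 for ESCs against -dox iPSCs, and from 196 to 510 for D6. DESeq2's Wald test called 608 and 270 for 2i with MKOS and OKMS, 609 and 1481 for MKOS and OKMS 3NG+ (979 with edgeR for OKMS), 556 and 271 for the cassettes in 3NG- and 3NG+ cells, 503 for ESCs against -dox iPSCs, and 397 for D6. The compared libraries alone gave 357 for 2i over both cassettes, 129 with MKOS, 27 with OKMS, 545 and 428 for MKOS and OKMS 3NG+, and 75 for D6, and the replicate block 145 for 2i with OKMS, 417 for MKOS 3NG+, and 175 for the cassettes in 3NG+ cells. E14 against TNG ESCs went from 7 to 181, 55, 263, and 17 under these 4 alternatives in this order. The interactions went, in the same order, from 1 to 143, 35, 0, and 1 for 2i, from 4 to 163, 20, 11, and 7 at the step to 3NG+, and from 70 to 359, 202, 120, and 107 at the step to 3NG-.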
